A study of Mus musculus with 24 samples.

Results

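Glycolysis and its oxygen-dependent control were followed through 38 genes in the first and second pharyngeal arches of the mouse embryo, the outgrowths that form the jaws and parts of the ear. The members were taken from a list of glycolytic and hypoxia-induced genes, and all 38 were found among the 26611 gene identifiers of the counts table. Of these, 22 carry out or feed glycolysis, 3 belong to oxygen sensing (the hydroxylases Egln1 and Egln3 and their target Hif1a) and 13 are induced by low oxygen. RNA-seq libraries were made from 24 female C57BL/6 embryos at E10.5, 4 for each genotype. The groups were wild type (Kat6a +/+, Dlx5 +/+), Kat6a heterozygous (Kat6a +/-), Dlx5 heterozygous (Dlx5 +/-), double heterozygous (Kat6a +/- and Dlx5 +/-), Dlx5 homozygous (Dlx5 -/-) and Kat6a homozygous (Kat6a -/-). Kat6a encodes a histone acetyltransferase and Dlx5 a homeobox factor that patterns the ventral arch, and the series asks how the loss of either or both alters craniofacial development.

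In glycolysis, glucose enters the cell through transporters, is phosphorylated and split, and ends as pyruvate, which lactate dehydrogenase turns into lactate when it is not passed to the mitochondria. When oxygen is scarce, the prolyl hydroxylases of the Egln family no longer mark the transcription factor HIF-1α for destruction, and HIF-1 then raises the transcription of glycolytic genes and of genes for vessel growth, mitophagy and pH balance. Midgestation embryos are known for a high rate of glycolysis and lactate output.

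Embryos came from 2 mouse facilities, given as batches. Batch 2 supplied every wild type and every Kat6a homozygous library, and batch 1 every Dlx5 homozygous one. Of the other groups, Kat6a heterozygous replicate 4, Dlx5 heterozygous replicate 4 and double heterozygous replicates 2, 3 and 4 were in batch 1. The facility and the Dlx5 homozygous genotype therefore share no wild type library, and that comparison rests on a batch effect estimated in the other groups. Total counts ran from 10406452 to 28198111 per library. Gene-level counts of the targeted gene did not mark the homozygous groups. Kat6a stood at 202 ± 40.7 CPM (TMM-scaled counts per 1e6 counts of the library, SD, n = 4) in wild type and 228 ± 14.6 CPM in the libraries labelled Kat6a homozygous. Dlx5 stood at 69.4 ± 6.78 CPM in wild type and 62.6 ± 5.11 CPM in those labelled Dlx5 homozygous. Dlx5 was lowest in the libraries labelled Kat6a homozygous, at 37.9 ± 3.29 CPM (log2 fold change -0.87, edgeR adjusted p = 1.46e-07). The sources used here do not give the deleted part of each gene, so counts could not check the labels. All 10 mesenchyme markers of the arch were detected, with a summed level of 1730 to 2270 CPM. Neuronal and glial markers varied between libraries, as mean centred log2 CPM over 14 markers. Replicate 2 of wild type, Kat6a heterozygous, Dlx5 heterozygous and Kat6a homozygous stood at 1.60 to 2.44 and double heterozygous replicates 3 and 4 at 1.72 and 1.71. The first 4 are called neuron-rich below. Without these 4 libraries edgeR called 0 members in every comparison. Over the whole table it then called 138 genes in double heterozygous arches, against 65 with all libraries. Without all 6 it called 1 member, Slc2a3 in double heterozygous arches (log2 fold change -0.77, edgeR adjusted p = 0.0358), which leaves 2 libraries in that group. That fit called 102 genes over the whole table in this comparison.

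The promoters of 5 members named in the comparisons below are shown for the short sequence at the core of HIF-1 binding sites. The letters searched were ACGTG on both strands, and matches are in capitals (CACGT is ACGTG on the other strand). Each run holds the 250 bases before a RefSeq start on GRCm38.p6, 5′ to 3′ on the strand of the gene. The windows are chrX:106186850-106187099 (+) for Pgk1, chr7:126799255-126799504 (-) for Aldoa, chr4:150236458-150236707 (+) for Eno1, chr7:46845554-46845803 (+) for Ldha and chr4:119108495-119108744 (+) for Slc2a1. Where RefSeq lists several starts, the start with the most matches was taken.
Pgk1: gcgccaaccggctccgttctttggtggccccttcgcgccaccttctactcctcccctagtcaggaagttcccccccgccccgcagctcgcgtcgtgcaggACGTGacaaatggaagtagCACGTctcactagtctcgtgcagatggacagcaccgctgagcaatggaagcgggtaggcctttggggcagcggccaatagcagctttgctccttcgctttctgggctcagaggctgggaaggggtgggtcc
Aldoa: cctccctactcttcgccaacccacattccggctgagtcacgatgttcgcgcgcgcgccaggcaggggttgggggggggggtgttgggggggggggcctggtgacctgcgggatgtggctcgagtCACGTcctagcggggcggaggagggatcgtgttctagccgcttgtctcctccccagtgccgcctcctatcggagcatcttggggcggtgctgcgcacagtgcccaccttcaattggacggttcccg
Eno1: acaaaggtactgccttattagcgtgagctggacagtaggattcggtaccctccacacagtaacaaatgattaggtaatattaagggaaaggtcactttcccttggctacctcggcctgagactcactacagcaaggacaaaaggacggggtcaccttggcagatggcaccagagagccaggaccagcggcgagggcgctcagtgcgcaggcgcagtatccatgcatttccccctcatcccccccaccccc
Ldha: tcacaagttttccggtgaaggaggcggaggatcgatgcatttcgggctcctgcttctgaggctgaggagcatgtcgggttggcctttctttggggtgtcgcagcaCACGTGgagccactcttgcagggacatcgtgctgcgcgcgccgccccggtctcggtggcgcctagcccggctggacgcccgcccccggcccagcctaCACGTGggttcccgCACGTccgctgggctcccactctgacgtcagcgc
Slc2a1: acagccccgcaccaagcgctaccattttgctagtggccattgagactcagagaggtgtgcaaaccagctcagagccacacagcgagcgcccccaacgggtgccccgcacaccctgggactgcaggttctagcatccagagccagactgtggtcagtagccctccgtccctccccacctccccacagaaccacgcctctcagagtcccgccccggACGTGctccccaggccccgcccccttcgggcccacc
Pgk1 held 2 matches, beginning 150 and 131 bases before the start. Ldha, the lactate dehydrogenase subunit, held 5 match positions, since the palindrome CACGTG is read on both strands. The Eno1 run held no ACGTG match, though it held the related letters GCGTG. A RefSeq promoter was found for 35 of the 38 members, with 53 windows in all, each of the 250 bases shown plus 50 after the start. Slc2a3, Bnip3l and Ndrg1 had no window in the set used. Of those windows, 54.7% held ACGTG, against 19.6% of all 32851 windows, and by gene 71.4% of the members against 21.8% of 27025 genes. The related letters GCGTG were in 52.8% of member windows against 32.4% of all, and CACGTG, which contains ACGTG, in 9.43% against 7.15%. A match is a string of letters and not a measured site.

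In these arches 7 of the 16 glycolytic enzymes, counted with Ldha, lay above 90% of the genes tested, while other enzymes and several textbook hypoxia markers were low. Levels between genes are compared as CPM per kb of deposited gene length, as mean ± SD over 24 libraries. Pkm, a pyruvate kinase gene, stood at 707 ± 61.6 CPM per kb, above 99.8% of the 14506 genes tested. Ldha followed with 596 ± 67.8 CPM per kb. Aldoa, the aldolase that splits the hexose, stood at 341 ± 38.2 CPM per kb, the enolase Eno1 at 310.0 ± 42.9 and the triosephosphate isomerase Tpi1 at 284 ± 28.6, values whose SDs overlap. Next came the phosphofructokinase Pfkl at 99.5 ± 10.7 CPM per kb and the isomerase Gpi1 at 75.3 ± 7.14 CPM per kb. Hif1a, the oxygen-regulated subunit of HIF-1, stood at 51.4 ± 3.73 CPM per kb. The glucose transporter Slc2a3 at 49.3 ± 9.35 CPM per kb and the mutase Pgam1 at 47.4 ± 3.47 CPM per kb had SDs that overlapped that of Hif1a. The other transporter, Slc2a1, stood at 45.6 ± 3.93 CPM per kb.

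**Figure D1:**
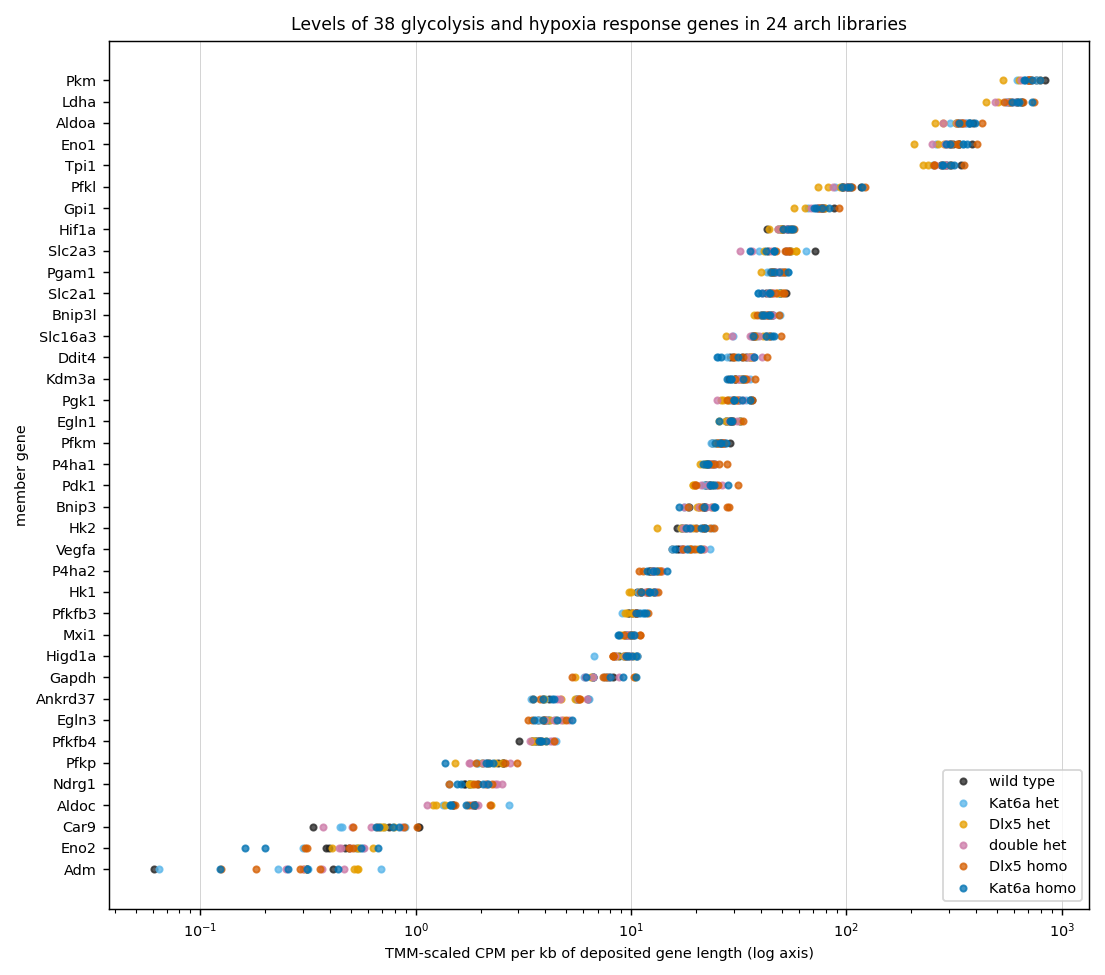
Level of each of the 38 members in 24 libraries, as TMM-scaled CPM per kb of deposited gene length on a log axis, with 1 point per library coloured by genotype group. Pkm and Ldha stand highest and Adm lowest, and for most members the points of all 6 groups lie on top of each other.

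Bnip3l, a mitophagy receptor, stood at 43.1 CPM per kb, the lactate exporter Slc16a3 at 38.9, the mTORC1 inhibitor Ddit4 at 33.4 and the histone demethylase Kdm3a at 32.0. The phosphoglycerate kinase Pgk1 was at 30.9 CPM per kb, the oxygen-sensing hydroxylase Egln1 at 29.2, the muscle-type phosphofructokinase Pfkm at 25.9 and the collagen prolyl hydroxylase P4ha1 at 23.2. The pyruvate dehydrogenase kinase Pdk1 was at 23.2 CPM per kb, the mitophagy receptor Bnip3 at 21.7, the hexokinase Hk2 at 19.4 and the vessel growth factor Vegfa at 18.9. Between 9.25 and 12.8 CPM per kb lay P4ha2, Hk1, the bifunctional regulator of phosphofructokinase Pfkfb3, the Myc antagonist Mxi1 and the mitochondrial protein Higd1a. Ankrd37, an ankyrin repeat protein, stood at 4.81 CPM per kb, the oxygen-sensing hydroxylase Egln3 at 4.19, the phosphofructokinase regulator Pfkfb4 at 3.8, Pfkp at 2.16, the stress-response gene Ndrg1 at 1.92 and the brain-type aldolase Aldoc at 1.69. The lowest were the carbonic anhydrase Car9, which exports acid equivalents in hypoxic cells, at 0.704 CPM per kb, the neuronal enolase Eno2 at 0.457 CPM per kb and the vasodilator peptide Adm at 0.323 CPM per kb. Adm had 1 to 12 counts per library and did not pass the filter on low counts, which left 37 members for the tests.

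Within each pair or trio of isozymes 1 form usually carried most of the transcript, by CPM per kb. Aldoa made up 99.5% ± 0.123 of the aldolase pair (SD over 24 libraries) and Eno1 99.8% ± 0.0567 of the enolase pair. Pfkl made up 77.9% ± 1.82 of the phosphofructokinase trio, with Pfkm at 20.4% ± 1.83 and Pfkp at 1.69% ± 0.254. Egln1 held 87.4% ± 1.66 of the Egln1 and Egln3 pair, Pfkfb3 73.5% ± 1.8 of the Pfkfb pair, Bnip3l 66.6% ± 2.5 of the mitophagy pair, P4ha1 64.4% ± 2.09 of the prolyl hydroxylase pair and Hk2 62.0% ± 2.93 of the hexokinase pair. The glucose transporters were near balance, Slc2a3 at 51.6% ± 3.3 and Slc2a1 at 48.4% ± 3.3. The near balance rests on the length correction, since Slc2a3 held 62.1% of the counts without it.

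Gapdh, the glyceraldehyde-3-phosphate dehydrogenase often used as a constant reference, stood far below its neighbours in the pathway. Its level was 7.52 ± 1.48 CPM per kb, above only 43.6% of the genes tested. Between libraries it ran from 6.53 to 13.0 CPM, or 76 to 266 counts. The transcript of Gapdh shares much of its sequence with copies elsewhere in the genome. Of its 50-base windows, 58.4% also occurred in other annotated genes of GENCODE M21, among them 213 pseudogenes, of which 8 were in the counts table with a summed mean of 11.4 CPM. Pgk1 shared 68.0% of its windows (5 pseudogenes), Eno1 49.5% (8 pseudogenes and Eno1b), Pgam1 41.5% (4 pseudogenes), Bnip3l 24.4% (1 pseudogene, with 23.6 CPM of its own), Pkm 23.7%, Bnip3 20.7% and Ldha 10.4%. The sources used here do not give the handling of multi-mapped reads, and the part of shared sequence in these levels was not tested. The levels of these genes relative to other genes are therefore uncertain.

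**Figure D2:**
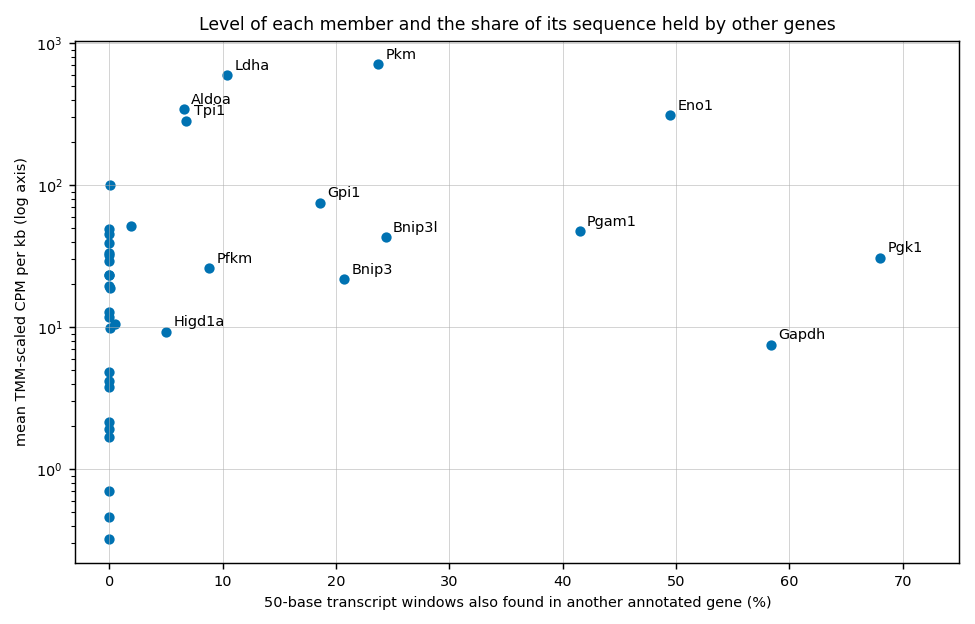
Mean level of each member (TMM-scaled CPM per kb, log axis) against the percentage of its 50-base transcript windows that also occur in another annotated gene. Gapdh, at 58.4% shared, lies near 7.52 CPM per kb, and Pkm, the highest, shares 23.7%.

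No member was called in any comparison between genotypes, at a Benjamini-Hochberg adjusted p under 0.05 from edgeR's quasi-likelihood test over 14506 genes. The values of the members with the smallest p are given below for each comparison, and none of them passed unless another tool is named. Log2 fold changes come from a model with the batch as a term, so they can differ from the ratio of the plain group means. In bulk tissue, fewer cells of a type and less RNA per cell cannot be told apart. All comparisons with wild type share the same 4 wild type libraries.

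In Dlx5 heterozygous arches most glycolytic enzymes had lower values than in wild type, without any passing the test. Of 22 glycolysis members, 18 had a negative log2 fold change, with a median of -0.19, against 47.7% negative and a median of 0.01 over all genes tested. The edgeR test called 0 of 37 members and 0% of all genes. At an unadjusted p under 0.05 stood 10 members (27.0%), 9 of them lower, against 11.3% of all genes. All 9 were glycolysis members, and 8 belonged to the 16 glycolytic enzymes counted with Ldha. DESeq2 called 1 member, Aldoa (log2 fold change -0.33, adjusted p = 0.0435), beside 0.0965% of all genes, and limma voom called 0 members and 0% of all genes. Aldoa read 598, 710, 630 and 678 CPM in wild type replicates 1 to 4 and 513, 589, 469 and 594 CPM in Dlx5 heterozygous replicates 1 to 4. The 2 groups did not overlap, with every heterozygous library below the lowest wild type one. The fold change of Aldoa was -0.32 on the log2 scale (SE 0.08, 95% confidence interval -0.49 to -0.16, edgeR adjusted p = 0.217).

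Eno1 showed the same separation. It read 592, 683, 553 and 593 CPM in wild type and 474, 534, 365 and 507 CPM in Dlx5 heterozygous libraries (log2 fold change -0.40, SE 0.11, edgeR adjusted p = 0.222). Aldoa and Eno1 were the 2 members that lay below all wild type libraries, as did 1.74% of all genes. Pgk1, which makes the first ATP of the lower pathway, read 53.7, 64.2, 57.3 and 65.6 CPM in wild type and 47.0, 51.0, 47.9 and 56.2 CPM in Dlx5 heterozygous libraries. Its batch 1 library, replicate 4, lay inside the wild type range (log2 fold change -0.31, SE 0.08, edgeR adjusted p = 0.217). Pfkl differed by -0.29 (SE 0.08, edgeR adjusted p = 0.225) and Ldha by -0.28 (SE 0.09, edgeR adjusted p = 0.261) on the log2 scale. Vegfa went the other way, with 69.4, 64.5, 68.1 and 71.7 CPM in wild type and 85.6, 78.1, 90.1 and 87.2 CPM in Dlx5 heterozygous libraries. All 4 lay above wild type, as they did for Ddit4 and for 1.88% of all genes. The log2 fold change of Vegfa was 0.30 (SE 0.10, edgeR adjusted p = 0.28).

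One library lay lowest for many enzymes. Dlx5 heterozygous replicate 3 was the lowest of all 24 libraries for 10 of the 16 enzymes and for 12 of 37 members, against 12.4% of all genes tested. Without it, the log2 fold change was -0.28 for Aldoa, -0.31 for Pgk1, -0.30 for Eno1, -0.23 for Pfkl and -0.21 for Ldha, and 7 rather than 10 members stood at an unadjusted p under 0.05. The median over all 37 members was -0.06 with it and -0.08 without it. Within batch 2 alone, where 3 Dlx5 heterozygous and all wild type libraries lie, the values were -0.33 for Aldoa, -0.31 for Pgk1, -0.41 for Eno1, -0.32 for Pfkl and -0.31 for Ldha. The same library had the fewest counts of the series (10406452) and the highest epithelial marker score (0.55 over 10 markers). In the group, 14 of 14 neuronal and glial markers had a positive log2 fold change (0 called, summed level 89.6 to 425 CPM against 71.9 to 516 CPM in wild type), and 10 of 12 erythroid markers a negative one (0 called, 2070 to 2950 CPM against 2040 to 5100 CPM), as did 11 of 12 endothelial markers (0 called, 422 to 480 CPM against 463 to 511 CPM). Their part in the enzyme values was not tested.

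**Figure D3:**
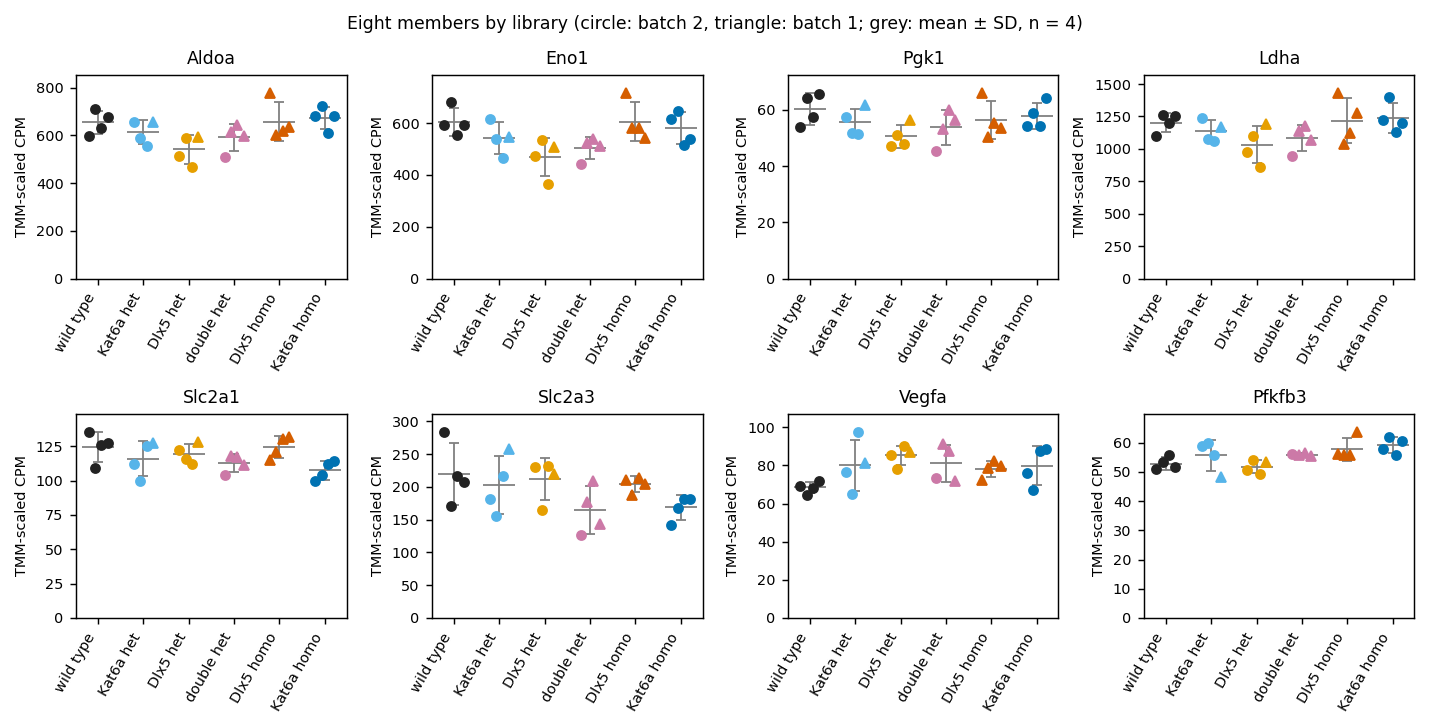
TMM-scaled CPM of 8 members in each library by genotype group, with circles for batch 2, triangles for batch 1 and grey bars for mean ± SD (n = 4). For Aldoa and Eno1 all Dlx5 heterozygous libraries lie below all wild type libraries, and for Vegfa they lie above.

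Double heterozygous arches held the largest number of members at an unadjusted p under 0.05 among the 5 comparisons with wild type, 11 of 37 (29.7%, 9 of them lower), against 13.0% of all genes. The edgeR test called 0 of 37 members, while it called 0.448% of all genes (0.296% higher and 0.152% lower). DESeq2 and limma voom each called 1, Slc2a3, beside 1.28% and 1% of all genes. The median log2 fold change was -0.20 for the 22 glycolysis members and 0.05 for the 15 tested oxygen-sensing and hypoxia-induced members, against 0.01 for all genes. Slc2a3, a high-affinity glucose transporter, read 283, 171, 217 and 207 CPM in wild type and 127, 177, 209 and 144 CPM in double heterozygous replicates 1 to 4. The groups overlapped. Its log2 fold change was -0.69 (SE 0.19, edgeR adjusted p = 0.111), with an adjusted p of 0.0105 by DESeq2 and 0.04 by limma voom. Over all alternatives it ranged from -0.80 to -0.42, the value nearest 0 being that without the batch term.

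Pgk1 read 45.4, 53.2, 59.9 and 56.5 CPM in double heterozygous libraries, with replicates 1 and 2 below all wild type values (log2 fold change -0.34, SE 0.10, edgeR adjusted p = 0.106). Without wild type replicate 1, Pgk1 was called at an edgeR adjusted p of 0.0445, with a log2 fold change of -0.41. That fit called 169 genes over the whole table, against 65 with all libraries. Eno1 read 442, 523, 539 and 512 CPM, and all 4 values lay below wild type, as for 3.3% of all genes (log2 fold change -0.37, SE 0.13, edgeR adjusted p = 0.224). With the replicate number as a block, Eno1 was the 1 member called in this comparison. In that fit 14 rather than 11 members stood at an unadjusted p under 0.05. Slc16a3, which carries lactate out of the cell, differed by -0.42 (SE 0.13, edgeR adjusted p = 0.139), Slc2a1 by -0.26 (SE 0.08, edgeR adjusted p = 0.151) and Aldoa by -0.30 (SE 0.10, edgeR adjusted p = 0.173). Vegfa, Ddit4 and Ndrg1 lay above all wild type libraries, as did 2.82% of all genes.

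These values depend on the batch term, since 3 of the 4 double heterozygous libraries came from the facility that held no wild type. Without the term, 5 instead of 11 members stood at an unadjusted p under 0.05 and the median over the 37 members was 0.01 instead of -0.09. Within batch 2, which leaves replicate 1 as the lone double heterozygous library, Slc2a3 differed by -0.79, Pgk1 by -0.41, Slc16a3 by -0.45, Slc2a1 by -0.27 and Aldoa by -0.36 on the log2 scale. That lone library is assumed to vary like the other groups, and the values are given without a call. Without that replicate the values were -0.61, -0.30, -0.40, -0.27 and -0.24. All 14 tested neuronal and glial markers had a positive log2 fold change in this group (0 called), with a summed level of 169 to 348 CPM. Of 12 macrophage and leukocyte markers 11 were positive and 1, Mpo, was called. The mean centred log2 CPM of 10 handling stress genes was 0.11 to 0.28, against -0.08 to 0.13 in wild type. Their part in the member values was not tested.

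In the libraries labelled Dlx5 homozygous, edgeR called 0 of 37 members and 0.0551% of all genes (0.0276% higher and 0.0276% lower). DESeq2 and limma voom also called 0 members, beside 0.255% and 0.117% of all genes. At an unadjusted p under 0.05 stood 5 members, against 9.97% of all genes. They were Pgk1 (log2 fold change -0.33, SE 0.11, edgeR adjusted p = 0.303), Pfkfb3 (0.20, adjusted p = 0.46), P4ha1 (0.16, adjusted p = 0.472), Pfkfb4 (0.30, adjusted p = 0.473) and Slc2a3 (-0.45, adjusted p = 0.493). The 2 Pfkfb enzymes set the level of fructose-2,6-bisphosphate, the activator of phosphofructokinase. Pfkfb3 read 50.9, 53.2, 55.6 and 51.6 CPM in wild type and 56, 55.7, 55.7 and 63.5 CPM in the 4 labelled libraries. All 4 were above the wild type range, 3 of them by less than 1 CPM. Pfkfb3, Pfkfb4 and Vegfa were so separated, as were 2.32% of all genes, while 0 members and 2.29% of all genes lay below wild type. The negative log2 fold change of Pgk1 stood beside plain means of 60.2 ± 5.66 CPM in wild type and 56.3 ± 6.71 CPM (SD, n = 4), and the groups overlapped. Genotype and facility cannot be told apart here by any library of the same facility.

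Replicate 1 of this group stood at the top of the series for glycolysis. It was the highest of 24 libraries for 9 of the 16 enzymes and for 11 of 37 members, against 5.4% of all genes. Eno1 read 716 CPM there and 581, 583 and 543 CPM in the other 3, and Ldha 1430 CPM against 1040, 1120 and 1280 CPM. Replicate 4 was highest for 8 members, against 3.12% of all genes, and these included Hif1a (271 CPM), Ddit4 (71.8 CPM), Bnip3 (50.2 CPM), Kdm3a (186 CPM) and P4ha1 (113 CPM). The 2 libraries thus differed in which members were at their highest, enzymes in the first and mainly hypoxia-induced genes in the second. All 14 tested neuronal and glial markers had a negative log2 fold change in the group (0 called, 56.6 to 80.6 CPM), and 11 of 12 erythroid markers a positive one (0 called, 2480 to 5160 CPM). Of 12 endothelial markers 11 were negative and 1, Cldn5, was called lower (442 to 455 CPM against 463 to 511 CPM in wild type, summed). Their part in these values was not tested.

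**Figure D4:**
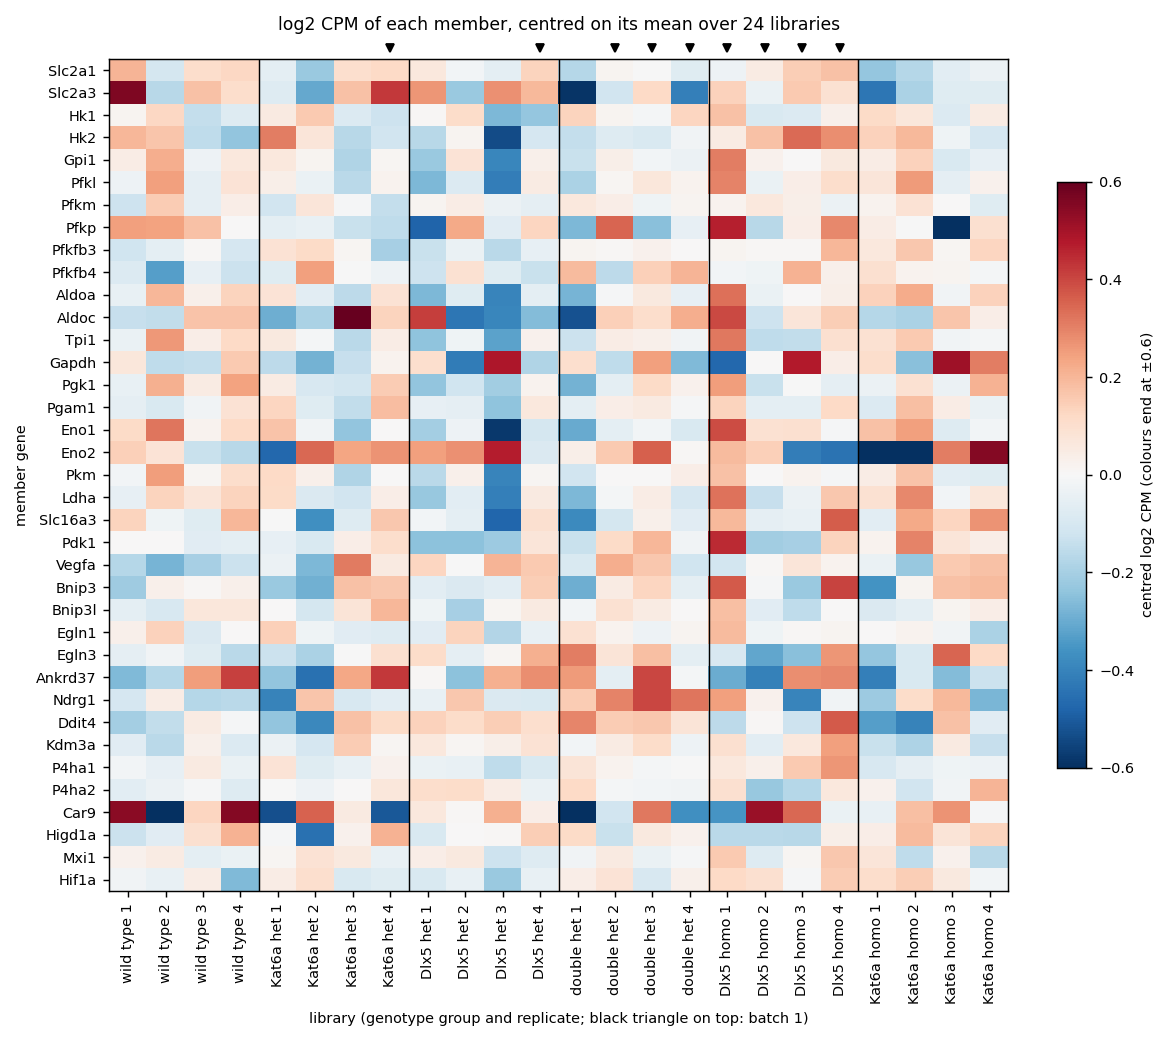
Centred log2 CPM of the 37 tested members (rows) in 24 libraries (columns, in genotype groups separated by lines; black triangles mark batch 1), with red above and blue below the mean of the gene. Dlx5 heterozygous replicate 3 is blue and Dlx5 homozygous replicate 1 red for most enzymes from Gpi1 to Ldha, except Gapdh, which goes the other way in both.

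The libraries labelled Kat6a homozygous had the most genes called by edgeR of the 5 groups (1.53% of all genes, 0.469% higher and 1.06% lower). Of the 37 members, edgeR, DESeq2 and limma voom each called 0, while DESeq2 called 2.11% and limma voom 0.958% of all genes. At an unadjusted p under 0.05 stood 5 members, against 13.6% of all genes, and the median log2 fold change of both the members and all genes was 0.01. Slc2a1, the widely expressed glucose transporter, read 135, 109, 126 and 127 CPM in wild type and 99.5, 104, 112 and 114 CPM in the labelled libraries. Wild type replicate 2 was the 1 library that made the groups overlap. The log2 fold change of Slc2a1 was -0.21 (SE 0.07, edgeR adjusted p = 0.122), and without wild type replicate 2 it was -0.28 with an adjusted p of 0.0386. That fit called 142 genes over the whole table, against 222 with all libraries. Slc2a3 also had a negative value (-0.39, SE 0.15, edgeR adjusted p = 0.255). Pfkfb3 (0.16, edgeR adjusted p = 0.209), Vegfa (0.22, edgeR adjusted p = 0.325) and Hif1a (0.14, edgeR adjusted p = 0.334) had positive ones. Pfkfb3 read 57.8, 61.9, 55.9 and 60.6 CPM, above all wild type libraries, and Pdk1 and Pfkfb4 were separated in the same way, as were 2.87% of all genes, while 0 members and 3.54% of all genes lay below wild type. Of 16 enzymes 8 were negative, with a median of -0.02. Beside these values, 2 of 12 macrophage and leukocyte markers (Mpo and Mrc1) were called higher, the list summing to 53.7 to 81.5 CPM against 43.5 to 55.4 CPM in wild type, and 12 of 12 erythroid markers had a positive log2 fold change (0 called, 2570 to 7770 CPM). Of 9 myogenic markers 7 were negative (median -0.53) and 1, Msc, was called lower, of 10 mesenchyme markers 1, Dlx2, was called lower, and 11 of 14 neuronal and glial markers were negative (median -0.57, 0 called). Their part was not tested.

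In Kat6a heterozygous arches edgeR, DESeq2 and limma voom called 0 of 37 members. Of all genes, edgeR and limma voom called 0% and DESeq2 0.496%. Only 2 members stood at an unadjusted p under 0.05, against 11.4% of all genes. These were Pgk1 (log2 fold change -0.17, SE 0.08, edgeR adjusted p = 0.404) and Pfkfb4 (0.21, SE 0.10, edgeR adjusted p = 0.419). Vegfa (0.20, edgeR adjusted p = 0.453), Slc2a1 (-0.14, edgeR adjusted p = 0.459) and Slc16a3 (-0.21, edgeR adjusted p = 0.469) followed. Pfkp, the platelet-type phosphofructokinase, was the 1 member with all 4 libraries below wild type (8.14, 8.23, 7.72 and 7.64 CPM against 10.1, 10.1, 9.6 and 8.5 CPM), as were 1.76% of all genes, while 0 members and 1.25% of all genes lay above. Vegfa ran from 65 to 97.3 CPM between these replicates.

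**Figure D5:**
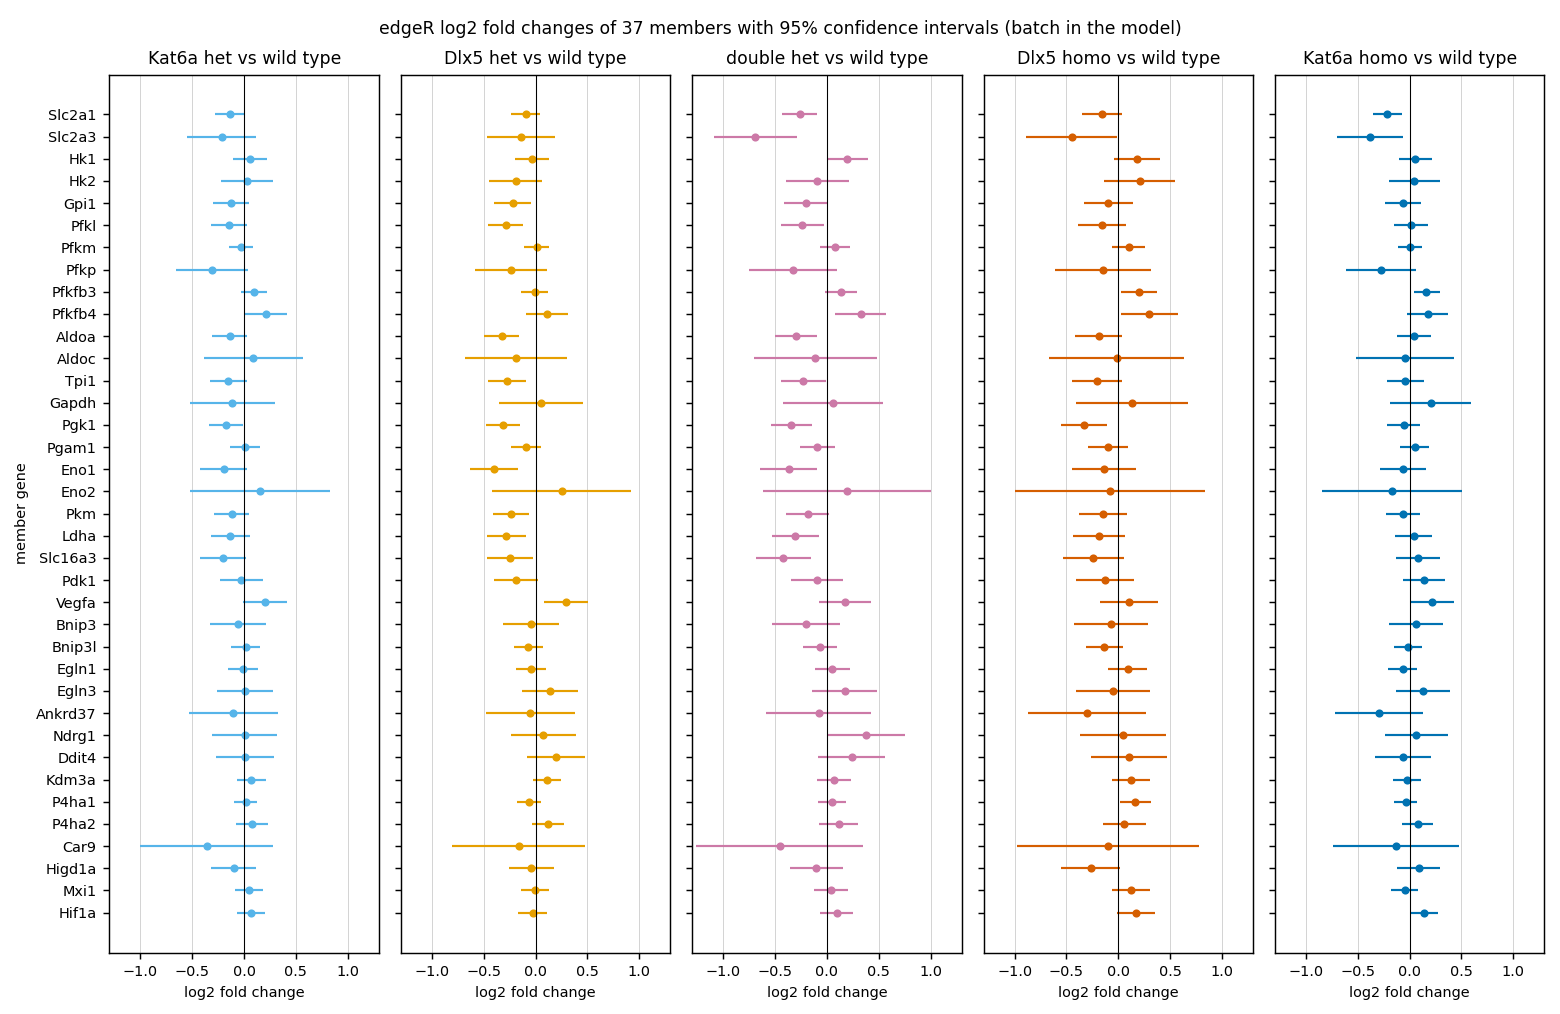
edgeR log2 fold changes of the 37 tested members against wild type with 95% confidence intervals, 1 panel per genotype group, batch in the model. The intervals of Aldoa, Pgk1, Eno1, Pfkl and Ldha lie below 0 in the Dlx5 heterozygous panel and those of Car9 and Eno2 are the widest.

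Vegfa was the member with the smallest p in the test of non-additivity, which asks whether the double heterozygous value departs from the sum of the single ones. Its value was -0.32 on the log2 scale (SE 0.14, edgeR adjusted p = 0.888). It was the only member at an unadjusted p under 0.05, against 5.4% of all genes. The edgeR, DESeq2 and limma voom tests called 0 of 37 members. Of all genes, edgeR and DESeq2 each called 0.00689% and limma voom 0%. Pfkl (0.20, adjusted p = 0.896), Hk1 (0.18, adjusted p = 0.896), Tpi1 (0.19, adjusted p = 0.896) and Slc2a3 (-0.33, adjusted p = 0.903) followed in the edgeR fit.

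Across the 6 groups at once, the edgeR F-test called 0 of 37 members and 1.39% of all genes. At an unadjusted p under 0.05 stood 10 members, against 15.1% of all genes. Aldoa came nearest (adjusted p = 0.0799), followed by Pgk1 (0.141), Eno1 (0.161), Slc16a3 (0.176) and Ldha (0.191). The likelihood ratio test of DESeq2 called 4 members (Slc16a3, Eno1, Slc2a3 and Aldoa) and 4.28% of all genes, and limma voom called 0 members and 1.21% of all genes.

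Between the facilities, glycolysis members tended to higher values in batch 1, again without passing the test. The edgeR, DESeq2 and limma voom tests called 0 of 37 members, and edgeR called 0.0345% of all genes (0.0138% higher and 0.0207% lower). DESeq2 called 0.186% and limma voom 0.407% of all genes. At an unadjusted p under 0.05 stood 11 members, all higher in batch 1, against 6.51% of all genes, and the median of the 22 glycolysis members was 0.15 against 0.00 for all genes. Pgk1 differed by 0.24 (SE 0.07, edgeR adjusted p = 0.423), Slc16a3 by 0.30 (SE 0.10, adjusted p = 0.506), Aldoa and Pfkl each by 0.20 (SE 0.08, adjusted p = 0.605) and Pgam1 by 0.16 (SE 0.06, adjusted p = 0.633). This effect was estimated from the groups that span both batches, in each of which 1 facility supplied a lone library. Dlx5 heterozygous replicate 3 and double heterozygous replicate 1, both of batch 2, had the lowest mean centred log2 CPM over glycolysis members (-0.20 and -0.16). Without the former, Aldoa differed by 0.17 and Pgk1 by 0.23 between the batches. Without the latter, they differed by 0.16 and 0.21, while Pgam1 differed by 0.20. All 12 macrophage and leukocyte markers had a lower value in batch 1 and 1, Mpo, was called, and their part was not tested.

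Replicates spread more for the abundant members than for other abundant genes. For the 25 members with a mean of at least 50 CPM the median within-group SD of log2 CPM was 0.133, against 0.093 for 5122 such genes. Over all 37 members it was 0.141, against 0.14 for all genes tested. Batch was not removed from these SDs, and the Kat6a heterozygous, Dlx5 heterozygous and double heterozygous groups hold libraries of both facilities. The part of the facility in this spread was not tested. The most even member was P4ha1 (SD 0.063) and the least even Eno2 (SD 0.431), which had 5 to 36 counts per library.

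Of the neighbouring pathways, the HIF machinery (14 genes, among them Epas1, Arnt and Vhl), the pentose phosphate pathway (8 genes) and the TCA cycle (16 genes) had 0 genes called by edgeR in any comparison. In Dlx5 heterozygous arches all 16 TCA genes had a negative log2 fold change (median -0.11), 5 of them (31.2%) at an unadjusted p under 0.05, against 11.3% of all genes. The TCA genes were negative in 14 of 16 cases in Kat6a heterozygous (median -0.08), 13 in double heterozygous (-0.09), 12 in Dlx5 homozygous (-0.06) and 9 in Kat6a homozygous libraries (-0.05). All these comparisons share the same wild type libraries, whose mean centred log2 CPM over the TCA genes was -0.04, 0.05, 0.04 and 0.17. Wild type replicate 4, at 0.17, was the highest library of the series, and the next stood at 0.07. The part of that library in these values was not tested. Among 28 tested genes of pyruvate, lactate and side steps, 1 was called in the libraries labelled Kat6a homozygous, beside 1.53% of all genes. This was Ldhb, the lactate dehydrogenase subunit that favours lactate oxidation, which read 54.9, 69.1, 69.5 and 67.1 CPM in wild type and 49.5, 43.4, 51.7 and 46.9 CPM in the labelled libraries. All 4 were below wild type, as for 3.54% of all genes. Ldhb fell by 0.44 on the log2 scale (SE 0.08, edgeR adjusted p = 0.00246), and Ldha did not pass there (0.04, edgeR adjusted p = 0.896). Without the 4 neuron-rich libraries the change of Ldhb was -0.37 with an edgeR adjusted p of 0.0692, and without all 6 libraries highest in neuronal markers it was -0.37 with an adjusted p of 0.1.

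Among 28 further hypoxia-induced genes, Loxl2, a collagen cross-linking oxidase, rose by 0.27 in the libraries labelled Kat6a homozygous (SE 0.07, edgeR adjusted p = 0.0361). Its level was 78.3 ± 7.97 CPM in wild type and 94.7 ± 6.17 CPM there (SD, n = 4). Its value was also positive, without passing edgeR, in Kat6a heterozygous (0.15, adjusted p = 0.4), Dlx5 heterozygous (0.04, 0.894), double heterozygous (0.16, 0.398) and Dlx5 homozygous libraries (0.19, 0.507). Wild type replicate 4, at 69.1 CPM, was the lowest library of the series for Loxl2. The call of Loxl2 was lost without wild type replicate 2 (edgeR adjusted p = 0.129), wild type replicate 4 (0.127) or Kat6a homozygous replicate 1 (0.155), 2 (0.0701) or 3 (0.0628). It was also lost in limma voom (0.0507), in batch 2 alone (0.135), with only the 2 groups in the fit (0.24) and without the 4 neuron-rich (0.204) or all 6 libraries highest in neuronal markers (0.267). The log2 fold change of Loxl2 stayed at 0.21 to 0.28 in these fits. Its relative Lox differed among the 6 groups in the F-test (edgeR adjusted p = 0.0489), with means of 5.20 ± 0.543 CPM in wild type, 7.66 ± 1.58 CPM in double heterozygous and 4.32 ± 0.982 CPM in Kat6a homozygous libraries. Ldhb also passed the F-test (edgeR adjusted p = 0.00215).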

How the data were processed

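RNA was sequenced from arches 1 and 2 of 24 embryos. Libraries were made with a stranded mRNA kit, per the labels' protocols. Base calling with CASAVA 1.8.2, counting with featureCounts and the build mm10 are named in the submitters' processing notes. The sources used here do not give the aligner, annotation, read length or strand setting. Overlapping and antisense genes are therefore uncertain. Raw gene counts were deposited by the authors, with gene lengths (another deposited column, in bases, of no sample) as 1 table and 24 identical sample files. Entries without identifier (568 of 27179, 0.182% to 0.259% of counts) were left out.

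Counts were filtered by filterByExpr (14506 genes), TMM-scaled and fitted with edgeR 4.0.16 (R 4.3.3, robust quasi-likelihood, 6 group means and batch, 24 libraries, 17 residual degrees of freedom), with Benjamini-Hochberg adjustment and calls under 0.05. Depth was 10406452 to 28198111 counts per library, and the common coefficient of variation 0.0896. Log2 CPM values carry a prior count of 2. Alternatives were DESeq2 1.42.0, limma 3.58.1 voom, RLE scaling, no filter or 1 CPM in 12 libraries, a replicate block, a fit lacking the batch term, a fit in batch 2, fits restricted to the groups compared and each library left out. Leaving out the 4 neuron-rich libraries, or the 6 highest in neuronal markers, was chosen after seeing the data. The procedure was tested on simulated data.

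Members and lists were chosen with earlier results of these data known. All members are named, per comparison called members and those of smallest p up to 5, and up to 4 called members of each further list. Members whose libraries did not overlap wild type, and values of other members, were added after their values were seen. Replicate numbers have no stated origin. Deviations of same-numbered libraries correlated above 0.1 in all 4 pairs only between wild type and Kat6a heterozygous libraries (0.183 to 0.661). The Kat6a homozygous libraries came close, with 0.0949 to 0.569 against wild type and 0.0834 to 0.62 against Kat6a heterozygous ones. Any pairing by replicate number therefore comes from the data alone. Chi-square per degree of freedom between replicates was 3.04 to 23.3, so none was a duplicate. The design text calls them biological replicates. Promoters are from RefSeq on GRCm38.p6 and transcripts from GENCODE M21.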

Additional observations from a re-analysis of the deposited data

Results flagged for a closer look

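In 12 of the 228 groups of 4 libraries examined, 1 library lay farther from the other 3 than Dixon's critical value allows, where chance alone gives about 1 in 20. In the Dlx5 heterozygous group, replicate 4 was high for Pdk1 (124 CPM, others 99.7 to 102) and Bnip3 (41.9 CPM, others 35.6 to 36.2) and low for Adm (0.418 CPM, others 0.713 to 0.744). Replicate 1 of that group was high for Aldoc (3.82 CPM, others 2.05 to 2.33) and replicate 2 for Ndrg1 (6.15 CPM, others 5.13 to 5.3). In the Dlx5 homozygous group, replicate 4 was high for Pfkfb3 (63.5 CPM, others 55.7 to 56) and Higd1a (17.7 CPM, others 15.4), and replicate 1 for Pkm (2060 CPM, others 1820 to 1860). Kat6a homozygous replicate 3 was low for Pfkp (5.43 CPM, others 8.48 to 9.08) and Kat6a heterozygous replicate 1 for Eno2 (0.787 CPM, others 1.39 to 1.5). Wild type replicate 1 was low for Bnip3 (32.6 CPM, others 38 to 38.7), and double heterozygous replicate 1 was high for P4ha2 (32.6 CPM, others 29.6 to 29.8). These CPM were not adjusted for batch. Dlx5 heterozygous replicate 4 was the only batch 1 library of its group, and double heterozygous replicate 1 the only batch 2 library of its group. The batch 1 against batch 2 log2 fold change was 0.23 for Pdk1 (edgeR adjusted p = 0.655) and 0.27 for Bnip3 (edgeR adjusted p = 0.728). The part of the facility in these flags was not tested.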

How the results depend on the processing

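No value changed sign among those called, and the members called by edgeR stayed at 0 in most alternatives, the exceptions being the following. DESeq2 called 1 member in Dlx5 heterozygous (Aldoa), 1 in double heterozygous (Slc2a3) and 4 in the F-test, and limma voom 1 in double heterozygous (Slc2a3). Without the low-count filter the F-test called 1 (Aldoa), and without the 6 libraries highest in neuronal markers double heterozygous had 1 (Slc2a3). With the replicate block, double heterozygous had 1 (Eno1) and the F-test 2 (Eno1, Aldoa), and the block changed no call in the Kat6a heterozygous comparison. With 1 library left out, members called ranged from 0 to 1 for double heterozygous (Pgk1 without wild type replicate 1), Kat6a homozygous (Slc2a1 without wild type replicate 2) and the F-test (Aldoa without Kat6a heterozygous 1, Dlx5 heterozygous 2 or Dlx5 homozygous 1). The median of the members moved to 0.006 (double heterozygous) and 0.026 (Dlx5 homozygous) without the batch term, to -0.020 in batch 2 alone and -0.023 with only the groups compared (double heterozygous), to -0.012 with the replicate block (Dlx5 homozygous) and to -0.035 without wild type replicate 4 (double heterozygous). The cause was not tested.

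Genes called over the whole table moved more. DESeq2 gave 72 (Kat6a heterozygous), 14 (Dlx5 heterozygous), 185 (double heterozygous), 37 (Dlx5 homozygous), 27 (batch) and 621 (F-test), against 0, 0, 65, 8, 5 and 202. Limma voom with quality weights gave 145 (double heterozygous), 17 (Dlx5 homozygous), 139 (Kat6a homozygous, against 222), 0 (non-additive, against 1) and 59 (batch). No filter gave 11 (batch). No batch term gave 10 (double heterozygous). Batch 2 alone gave 1 (Kat6a heterozygous), 9 (double heterozygous), 98 (Kat6a homozygous), 6 (non-additive) and 67 (F-test). The replicate block gave 0 (non-additive) and 10 (batch). Only the groups compared gave 10 (double heterozygous), 64 (Kat6a homozygous) and 0 (non-additive). Dlx5 homozygous could not be fitted so or in batch 2 alone, having no batch in common with wild type. Without the neuron-rich libraries there were 7 (Dlx5 heterozygous), 138 (double heterozygous), 4 (Dlx5 homozygous), 83 (Kat6a homozygous) and 0 (non-additive). Without the 6 libraries highest in neuronal markers there were 5 (Dlx5 heterozygous), 102 (double heterozygous), 1 (Dlx5 homozygous), 75 (Kat6a homozygous), 0 (non-additive) and 0 (batch). Leaving out 1 library gave 0 to 196 (Kat6a heterozygous), 0 to 1 (Dlx5 heterozygous), 1 to 169 (double heterozygous), 0 to 16 (Dlx5 homozygous), 122 to 444 (Kat6a homozygous), 0 to 1 (non-additive), 0 to 12 (batch) and 106 to 265 (F-test). The highest of these for Kat6a heterozygous, double heterozygous and Kat6a homozygous came without wild type replicate 1, and the lowest for double heterozygous without its replicate 1. Depth limits the statements on Adm, Eno2 and Car9.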
